A study of Mus musculus with 10 samples.

Results

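Prox1, Zbtb20, Nfia, Nfib, Nfic and Nfix encode transcription factors of the hippocampal primordium and of the nuclear factor I (NFI) family, and they were followed here in the Emx2-mutant mouse cortex. The 6 genes were chosen by symbol, and all 6 were found among the 56748 gene identifiers of the count tables and among the 18163 genes that had enough reads to test. Bulk RNA-seq had been performed on 10 libraries at embryonic day E12.5, 5 labelled Emx2 KO and 5 labelled WT. The tissue is labelled cortex, and the series' design text calls it dorsal telencephalon. The labels give no strain, sex or allele, and nothing says whether libraries came from separate embryos, so a p-value here speaks only of the spread among the deposited libraries, part of which may be technical. The question the design poses is what loss of Emx2, a homeodomain factor of the medial and caudal cortex, does to the transcriptome.

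In the knockout libraries, Prox1, Nfib and Nfix fell, while Nfic and Zbtb20 did not pass the test, and Nfia did not pass with genotype alone in the model but did with the title code as a block. Prox1 was at 0.507 of its WT mean and Nfix at 0.429. The NFI genes did not change by equal amounts: Nfix made up a smaller part of all NFI reads in the knockout, and Nfia and Nfic a larger part. Zbtb20 had the only positive fold change of the 6. The ratio of Prox1 to Zbtb20 separated the genotypes completely, as Prox1 alone did.

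The hippocampal primordium is the medial strip of the cortical sheet, next to the cortical hem, a Wnt- and BMP-secreting centre. PROX1 is a prospero-type homeodomain factor that marks and maintains dentate granule cells, and ZBTB20 is a zinc finger repressor needed for CA1 pyramidal cell identity. NFI proteins bind DNA as dimers at TTGGC-containing sites; in the embryonic forebrain NFIA, NFIB and NFIX act in radial glia, where they help move progenitors towards intermediate progenitors, neurons and, later, astrocytes, and mice lacking any one of them have malformed hippocampi. NFIC is best known from mouse tooth root development.

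Sequencing gave 9720840 to 35674113 counts per library. The libraries fell into a larger class of 24856930 counts or more (knockout replicates 1, 2 and 4, WT replicates 3 and 4) and a smaller class of 14700549 or fewer (knockout replicates 3 and 5, WT replicates 1, 2 and 5). Sample titles end in 1 of 3 codes, whose meaning the labels do not give. Within each code all knockout libraries are of one size class and all WT libraries of the other, so code, size and genotype cannot be told apart within a code. Levels are counts per 1000000 (CPM) on TMM-scaled library sizes, and tests are edgeR quasi-likelihood F tests, two-sided, with p-values adjusted by Benjamini-Hochberg over all tested genes at a threshold of 0.05. By this test 4039 genes changed, which is 22.2% of those tested, with 12.9% higher and 9.33% lower in the knockout. The median log2 fold change over all tested genes was -0.01 and the median size of the change, ignoring sign, was 0.16.

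Emx2 itself was measured at 146, 129, 108, 137 and 94.4 CPM in knockout replicates 1 to 5, against 207, 178, 174, 182 and 185 CPM in WT replicates 1 to 5. All knockout libraries lay below all WT libraries, and the log2 fold change was -0.59 ± 0.11 (SE; edgeR adjusted p = 0.00271). Reads on the gene remained in the knockout, and a count summed over all exons does not tell where in the gene the allele differs from WT. The cortical identity of the tissue was checked with the dorsal telencephalon genes Emx1, Pax6, Tbr1, Eomes, Lhx2 and Neurog2, all of which were detected in every library. Emx1, Pax6, Tbr1 and Eomes rose in the knockout, with log2 fold changes of 0.49, 0.34, 0.67 and 0.34, and Lhx2 (-0.04) and Neurog2 (0.29) did not pass the test.

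Prox1 (ENSMUSG00000010175, chromosome 1) was measured at 20.1, 18.9, 30.6, 21.3 and 16.4 CPM in knockout replicates 1 to 5, against 37.1, 45.2, 39.5, 41.7 and 48.1 CPM in WT replicates 1 to 5. Every knockout library lay below every WT library, the nearest being knockout replicate 3. Its mean was 21.4 ± 5.43 CPM in the knockout and 42.3 ± 4.41 CPM in WT (SD, n = 5 each), and its log2 fold change was -0.98 ± 0.15 (SE, 95% confidence interval -1.30 to -0.66; edgeR adjusted p = 0.000698). Between 237 and 1427 reads per library stood behind these values.

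Zbtb20 (ENSMUSG00000022708, chromosome 16) did not pass the test. Its level was 131, 188, 239, 175 and 203 CPM in knockout replicates 1 to 5, against 101, 158, 170, 157 and 138 CPM in WT replicates 1 to 5. The groups overlapped, since knockout replicate 1 lay below all WT libraries but replicate 1. The means were 187 ± 39.4 CPM in the knockout and 145 ± 27.0 CPM in WT (SD, n = 5 each). The log2 fold change of 0.36 ± 0.17 (SE) had a 95% confidence interval of -0.02 to 0.75 and an edgeR adjusted p of 0.172, which spans values near 0.

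The ratio of Prox1 to Zbtb20 counts does not depend on library scaling. It was 0.117 ± 0.0277 in the knockout, from 0.0808 to 0.153, and 0.300 ± 0.0566 in WT, from 0.233 to 0.367 (SD, n = 5 each). The ranges did not overlap, and the log2 difference was -1.37 (exact permutation test over libraries, two-sided, p = 0.00794, the smallest that 5 against 5 libraries can give). Prox1 alone already separated the genotypes and Zbtb20 alone did not, so the separation of the ratio does not show a change in Zbtb20.

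**Figure D1:**
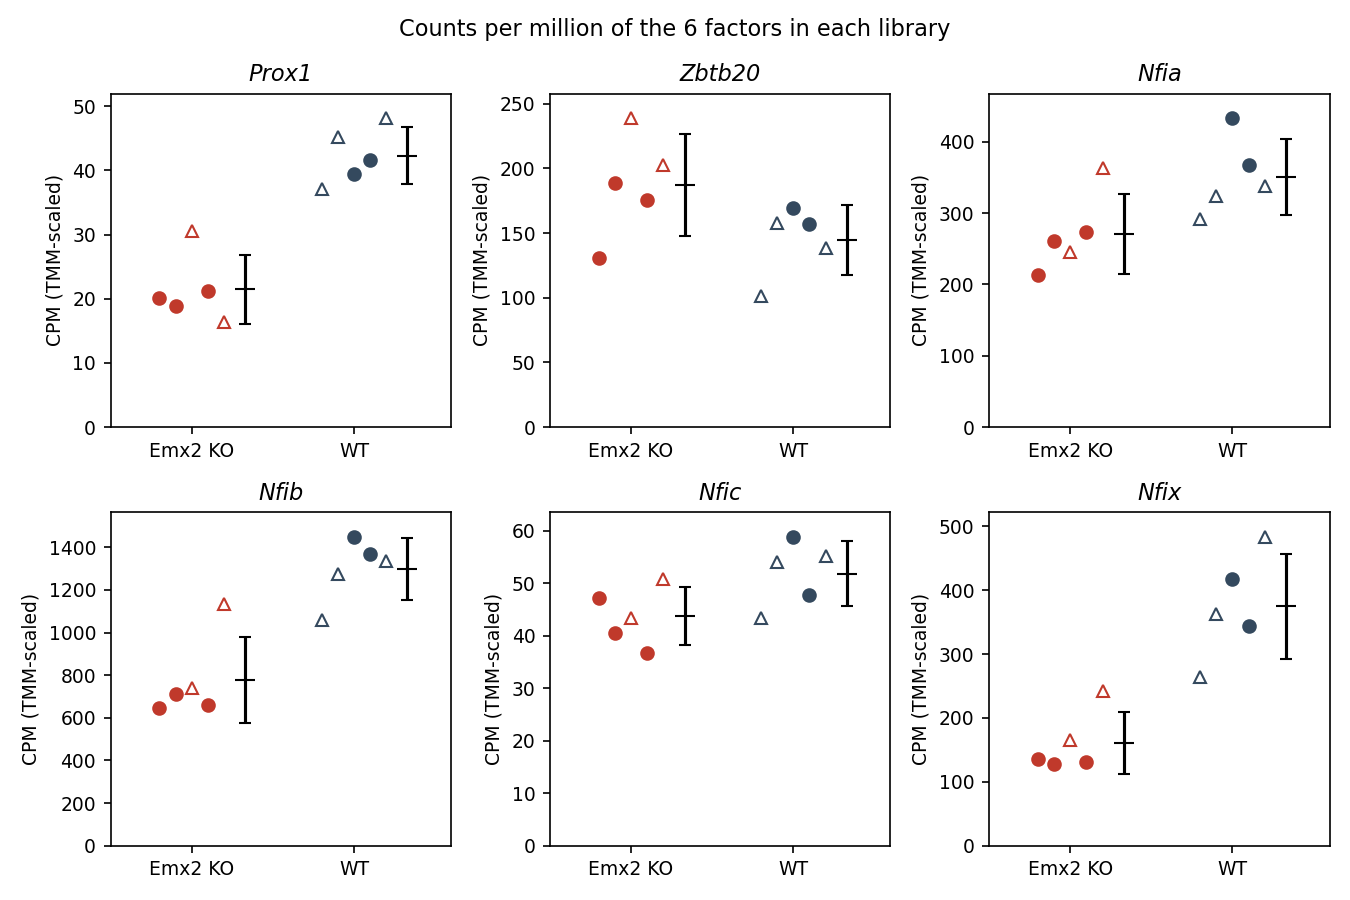
Level of each of the 6 genes in every library, in TMM-scaled CPM on axes that start at 0, with Emx2 KO left and WT right. Filled circles are libraries above 20000000 counts and open triangles libraries below it; black bars give the mean and SD of 5 libraries. Prox1 and Nfix show no overlap between the genotypes, and knockout replicate 5, an open triangle, stands at 1134 CPM in the Nfib panel.

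Nfib (ENSMUSG00000008575, chromosome 4) fell. It was measured at 645, 713, 740.4, 660.1 and 1134 CPM in knockout replicates 1 to 5, against 1060.2, 1275, 1449.8, 1367 and 1334 CPM in WT replicates 1 to 5. Only knockout replicate 5 reached the WT range, where it exceeded WT replicate 1. The means were 778 ± 202 CPM in the knockout and 1297 ± 147 CPM in WT (SD, n = 5 each), with a log2 fold change of -0.74 ± 0.15 (SE, 95% confidence interval -1.08 to -0.39; edgeR adjusted p = 0.00677).

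Nfix (ENSMUSG00000001911, chromosome 8) had the largest fold change of the 6 genes. Its level was 135, 128, 165, 132 and 242 CPM in knockout replicates 1 to 5, against 265, 362, 418, 344 and 484 CPM in WT replicates 1 to 5. The genotypes did not overlap, although knockout replicate 5 came close to WT replicate 1. The means were 160.5 ± 48.1 CPM in the knockout and 374 ± 82.2 CPM in WT (SD, n = 5 each), with a log2 fold change of -1.23 ± 0.21 (SE, 95% confidence interval -1.71 to -0.74; edgeR adjusted p = 0.00311).

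Nfia (ENSMUSG00000028565, chromosome 4) did not pass the test after adjustment. It was measured at 213, 260.4, 246, 273 and 363 CPM in knockout replicates 1 to 5, against 291, 324, 433, 367 and 338 CPM in WT replicates 1 to 5. Knockout replicate 5 lay inside the WT range and the other knockout libraries below it. The log2 fold change was -0.37 ± 0.14 (SE, 95% confidence interval -0.70 to -0.05; edgeR adjusted p = 0.0942). The call depends on the model: with the title code as a block the same fold change passed (edgeR adjusted p = 0.0427), as it did with DESeq2 (adjusted p = 0.0264), limma-voom (0.0424) and Y-linked expression as a covariate (0.0282), and with library size class as a block it did not (0.123).

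Nfic (ENSMUSG00000055053, chromosome 10) did not pass either. Its level was 47.2, 40.5, 43.3, 36.7 and 50.8 CPM in knockout replicates 1 to 5, against 43.3, 54.0, 58.8, 47.6 and 55.2 CPM in WT replicates 1 to 5. The groups overlapped widely. The log2 fold change was -0.25 ± 0.10 (SE, 95% confidence interval -0.47 to -0.03; edgeR adjusted p = 0.0979).

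Of the 6 genes, 3 were called lower, against 9.33% of all genes tested, and 0 were called higher. Libraries of the genotypes did not overlap for 2 of the 6 (Prox1 and Nfix), against 16.7% of all genes tested. Knockout replicate 5 was the highest knockout library for all 4 NFI genes and the lowest for Prox1 and Emx2. Without it, Nfia and Nfic also passed the test (edgeR adjusted p of 0.0107 and 0.0439), which brought the number called lower to 5, and Nfib and Nfix had log2 fold changes of -0.91 and -1.42. Knockout replicate 5 was also the extreme knockout library for several sums of cell type markers, as other knockout libraries were for other sums. Knockout replicate 3 had the highest neuronal sum (4550 CPM) and the lowest cortical hem sum (60.9 CPM). Replicate 1 had the highest blood sum (7435 CPM). In replicate 5 the summed subpallial markers stood at 336 CPM, against 545 to 758 CPM in the other knockout libraries. Its diencephalic markers stood at 97.5 CPM, against 132 to 151 CPM. Its choroid plexus markers, a sum that in the knockout is on average mostly Otx2, stood at 57.5 CPM, against 67.7 to 93.0 CPM. Its intermediate progenitor markers were the highest of the knockout libraries, at 1388 CPM against 1074 to 1219 CPM. Its radial glia markers (3018 CPM, the next being 3103 CPM), lymphatic markers (41.8 and 42.1 CPM) and liver and lens markers (0.345 and 0.368 CPM) were the lowest by smaller gaps. The part of these markers in its NFI levels was not tested.

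The start regions of the genes are given here because Emx2 encodes a homeodomain protein, whose class binds TAATTA-like sites, and because NFI proteins bind TTGGC. RefSeq windows of 300 bases (250 before and 50 from the annotated start on, mouse build GRCm38.p6) were at hand for 5 of the 6 genes, 9 windows in all, with none for Nfib. TAATTA, which reads the same on both strands, was found in 1 of the 9 windows, against 5.291% of 32851 mouse windows of the same length. That window belongs to a start of Nfix, chr8:84780033-84780332 on the minus strand, where the site, in capitals, begins 40 bases before the start. The first Prox1 window listed, chr1:190170778-190171077 on the minus strand, holds none. TTGGC, searched on both strands, was in 3 of the 9 windows, all from other starts of Nfix, against 46.71% of all windows. A match describes the letters only, and binding was not measured.
Nfix: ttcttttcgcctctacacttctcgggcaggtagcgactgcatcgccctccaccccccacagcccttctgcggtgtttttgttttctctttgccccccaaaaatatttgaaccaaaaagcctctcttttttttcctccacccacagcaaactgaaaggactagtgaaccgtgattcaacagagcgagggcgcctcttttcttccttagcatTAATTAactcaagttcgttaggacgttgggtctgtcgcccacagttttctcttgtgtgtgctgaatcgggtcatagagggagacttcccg
Prox1: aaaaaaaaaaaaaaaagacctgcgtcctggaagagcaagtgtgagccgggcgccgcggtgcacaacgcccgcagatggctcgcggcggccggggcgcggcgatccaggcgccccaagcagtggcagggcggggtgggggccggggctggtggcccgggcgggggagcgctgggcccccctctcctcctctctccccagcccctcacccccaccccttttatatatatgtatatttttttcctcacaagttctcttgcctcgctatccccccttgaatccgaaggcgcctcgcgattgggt

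The 4 NFI genes were then compared with each other through each gene's share of their summed counts, which cancels library scaling. The NFI sum was 1040.4, 1142, 1194, 1101 and 1789 CPM in knockout replicates 1 to 5, against 1659, 2015, 2360, 2125 and 2211 CPM in WT replicates 1 to 5. Nfix made up 12.7 ± 1.10% of it in the knockout, from 11.2 to 13.8%, and 17.9 ± 2.38% in WT, from 15.9 to 21.9% (SD, n = 5 each). Nfia made up 21.8 ± 1.97% in the knockout, from 20.3 to 24.8%, and 16.9 ± 1.23% in WT, from 15.3 to 18.3%. Nfic, the least counted, made up 3.58 ± 0.619% in the knockout, from 2.84 to 4.54%, and 2.50 ± 0.167% in WT, from 2.24 to 2.68%. For these 3 the genotypes did not overlap, and each had p = 0.00794 by the exact permutation test over libraries (two-sided, the smallest it can give; 0.0106 after Benjamini-Hochberg adjustment over the 4 shares). Nfib held 61.9 ± 1.26% in the knockout, from 59.9 to 63.4%, and 62.7 ± 1.69% in WT, from 60.4 to 64.3%, and its share did not pass the test (exact permutation p = 0.476). Knockout replicate 5, whose NFI sum was inside the WT range, also had a lower Nfix share than any WT library. Shares are of reads and not of transcripts, since no transcript lengths of the counted build were used, and they are bound to each other because they add up to the whole.

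**Figure D2:**
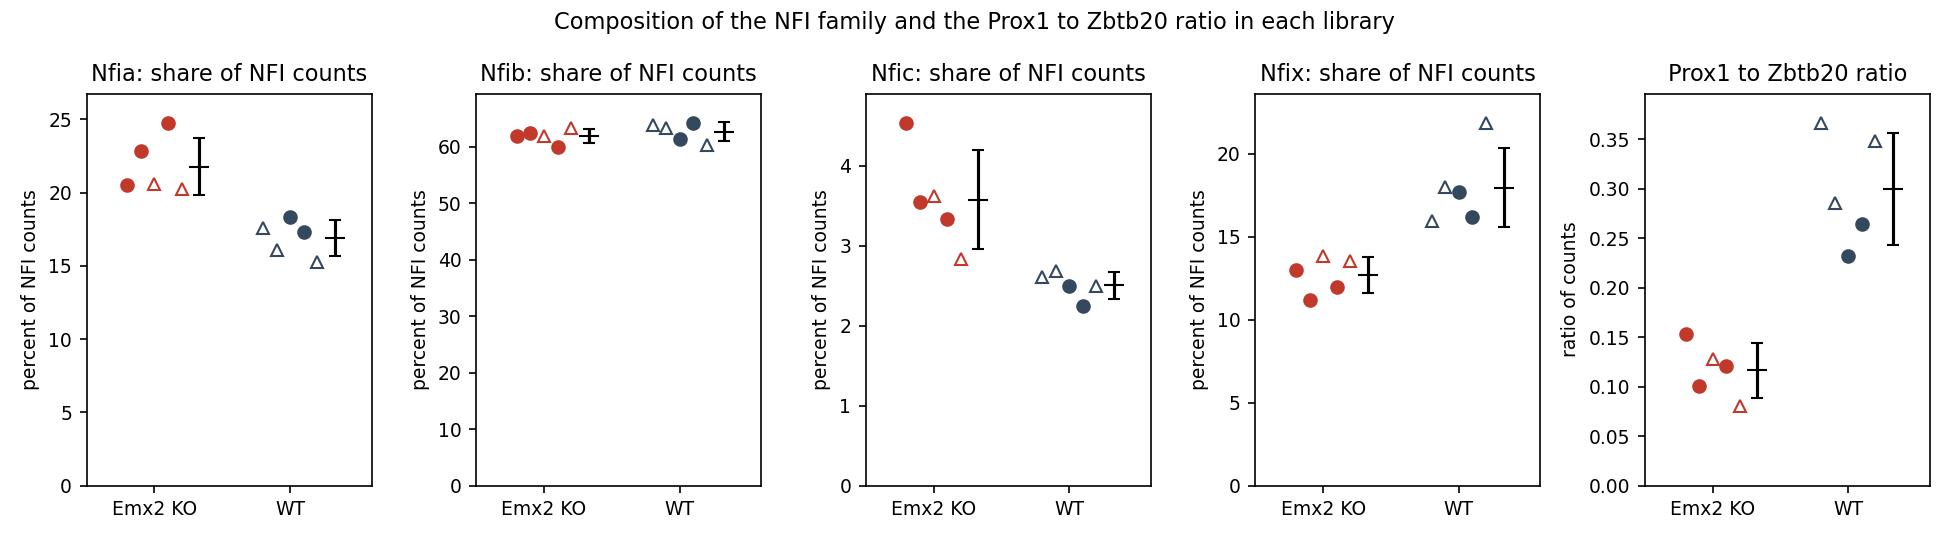
Share of the summed Nfia, Nfib, Nfic and Nfix counts held by each gene, in percent per library, with Emx2 KO left of WT; filled circles are libraries above 20000000 counts, open triangles those below, and black bars the mean and SD of 5 libraries. Nfia and Nfic shares are all higher in the knockout, Nfix shares all lower, and Nfib shares overlap around 61.9 and 62.7%. The last panel gives the ratio of Prox1 to Zbtb20 counts, which is not a percent.

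Because library size and title code differ between libraries, the genotype difference was also computed within subsets, on the log2 scale. Among libraries above 20000000 counts (3 knockout, 2 WT) Prox1, Nfib, Nfix and Nfia all passed, with differences of -1.01, -1.07, -1.53 and -0.69 (edgeR adjusted p of 0.000109, 4.88e-05, 3.34e-05 and 0.0113). Among libraries below it (2 knockout, 3 WT) none of the 6 passed, with -0.89 for Prox1, -0.38 for Nfib, -0.86 for Nfix and -0.06 for Nfia. Zbtb20 differed by 0.01 among the larger and 0.74 among the smaller libraries, and neither passed (edgeR adjusted p of 0.974 and 0.124). Within title code 241022 (2 libraries of each genotype) Prox1, Nfib and Nfix passed at -1.08, -0.78 and -1.25. Within code 14922 (2 of each) they had -0.80, -0.59 and -0.91 and did not pass, while Zbtb20 passed at 0.43 (edgeR adjusted p = 0.0364). The knockout libraries of code 14922, replicates 3 and 5, are also the only knockout libraries below 20000000 counts. These 2 subsets are therefore not separate checks. Nfic passed in no subset, with differences from -0.36 to -0.11. The third code holds 1 library of each genotype and was not tested alone. The difference between the 2 codes was tested as an interaction of genotype and code over 8 libraries. In code 241022 the knockout libraries are the larger ones and in code 14922 the WT libraries are. The interaction therefore cannot be told apart from an effect of library size, and it does not show whether the codes agree. None of the 6 genes passed, against 1.53% of all genes tested, and the interactions ran from -0.33 for Nfix to 0.04 for Nfic, with edgeR adjusted p-values of 0.962 to 0.995.

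**Figure D3:**
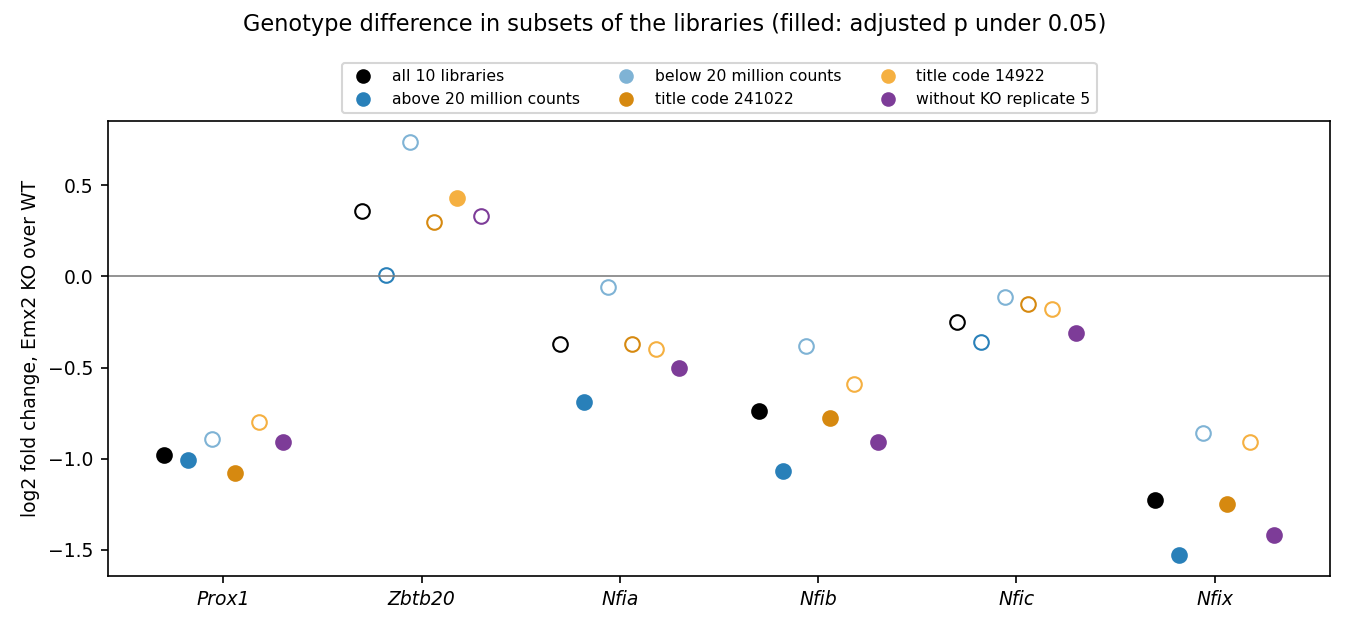
Log2 fold change of Emx2 KO over WT for each of the 6 genes, from all 10 libraries, from each subset by library size or title code, and without knockout replicate 5; filled symbols passed an adjusted p of 0.05. Prox1, Nfib and Nfix lie below 0 in every fit shown, with -1.53 for Nfix in the larger libraries, and Zbtb20 lies between 0.01 and 0.74.

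Annotated genes whose spans overlap the 6 were examined because the strand setting of the counting is not stated. Reads could therefore be mixed wherever exons of the genes overlap, and overlap of exons was not examined. Gm11266, annotated antisense within Nfib, was lower in the knockout, at 20.7 ± 4.76 CPM against 45.2 ± 5.28 CPM in WT (log2 fold change -1.13 ± 0.14 SE; edgeR adjusted p = 0.000188), without overlap between genotypes. E130114P18Rik, on the opposite strand to Nfia, was lower at 46.8 ± 7.13 CPM in the knockout and 63.3 ± 6.43 CPM in WT (log2 fold change -0.44 ± 0.10 SE; edgeR adjusted p = 0.00825). G430095P16Rik, opposite Nfix, was lower at 0.858 ± 0.240 CPM in the knockout and 1.63 ± 0.331 CPM in WT (log2 fold change -0.89 ± 0.23 SE; edgeR adjusted p = 0.0163). Lyl1, a blood and endothelial transcription factor gene opposite Nfix, did not pass (log2 fold change 0.07, edgeR adjusted p = 0.863). At Zbtb20 the pseudogene BC002163 had a log2 fold change of 0.01 and did not pass. Prox1os, antisense to Prox1, had at most 16 reads in any library and was not tested.

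Other genes listed here for the hippocampal primordium moved in both directions, and the list is not restricted to genes particular to it. Of 12 such genes, none of them among the 6, 2 rose, 4 fell and 6 did not pass, with a median log2 fold change of -0.02 beside -0.01 for all genes. Fzd9, a Wnt receptor, was at 28.5 ± 2.32 CPM in the knockout and 55.6 ± 9.34 CPM in WT (log2 fold change -0.96 ± 0.10 SE; edgeR adjusted p = 6.98e-05). Lmo2, a LIM-domain cofactor, was at 23.4 ± 4.34 CPM in the knockout and 48.7 ± 6.08 CPM in WT (-1.05 ± 0.13; adjusted p = 0.000184). The other fallers, named after their values were seen, were Wnt8b, a Wnt ligand of the medial wall, at 29.8 ± 11.4 CPM in the knockout and 97.9 ± 29.4 CPM in WT, and Dmrt3, a doublesex-related factor, with a log2 fold change of -0.64. Pou3f1, a POU-domain factor, rose to 39.4 ± 4.33 CPM in the knockout, against 12.4 ± 3.31 CPM in WT (1.66 ± 0.16; adjusted p = 4.31e-05). Emx1, the paralog of Emx2, rose to 152 ± 15.7 CPM in the knockout, against 109 ± 5.94 CPM in WT (0.49 ± 0.07; adjusted p = 0.000303). It is also one of the dorsal telencephalon genes of the tissue check above.

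Genes that earlier work in mouse links to NFI factors, chiefly glial and radial glial genes, also split. Of 19 listed, 15 could be tested, and 5 rose, 5 fell and 5 did not pass (median log2 fold change -0.07); without knockout replicate 4 the number that fell was 3. Gfap, S100b, Gabra6 and Insc had too few reads. Slc1a3, a glial glutamate transporter of radial glia, rose to 206 ± 13.8 CPM in the knockout, against 129 ± 11.8 CPM in WT (log2 fold change 0.67 ± 0.07 SE; edgeR adjusted p = 3.04e-05). Sox9, a gliogenic transcription factor, rose to 246 ± 25.0 CPM in the knockout, against 189 ± 8.64 CPM in WT (0.38 ± 0.06; adjusted p = 0.00126). Aldh1l1, a folate enzyme gene of later astrocytes, was at 1.13 ± 0.139 CPM in the knockout and 0.410 ± 0.0859 CPM in WT (1.41 ± 0.23; adjusted p = 0.000833). Aqp4, the water channel of astrocytes, fell to 0.781 ± 0.0818 CPM in the knockout, against 2.27 ± 0.451 CPM in WT (-1.51 ± 0.19; adjusted p = 0.000176). Aldh1l1 and Aqp4 are low in all libraries. The other genes of the list that passed were named after their values were seen. Fabp7, a fatty acid binding protein gene of radial glia, and Cdh2, the N-cadherin gene, rose by 0.44 and 0.23 on the log2 scale. The remaining fallers were Apcdd1, a Wnt inhibitor, with a log2 fold change of -1.14, and Ephb1, Mmd2 and Bbx, with -0.66, -0.45 and -0.31.

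Of 10 isocortical neuron genes linked in mouse to repression by ZBTB20, 3 rose, 2 fell and 5 did not pass, with a median log2 fold change of 0.15. Tbr1, a deep-layer T-box factor, rose to 430.3 ± 37.2 CPM in the knockout, against 269.7 ± 21.5 CPM in WT (log2 fold change 0.67 ± 0.07 SE; edgeR adjusted p = 3.55e-05). Foxp2, a forkhead factor of corticothalamic neurons, rose to 57.6 ± 6.19 CPM in the knockout, against 33.1 ± 4.47 CPM in WT (0.80 ± 0.10; adjusted p = 0.000187). Fezf2, which specifies subcerebral projection neurons, fell to 82.8 ± 7.34 CPM in the knockout, against 134 ± 7.45 CPM in WT (-0.69 ± 0.06; adjusted p = 1.70e-05). Zfpm2, a zinc finger cofactor of deep layers, fell to 18.9 ± 3.79 CPM in the knockout, against 31.3 ± 1.59 CPM in WT (-0.74 ± 0.12; adjusted p = 0.000805).

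**Figure D4:**
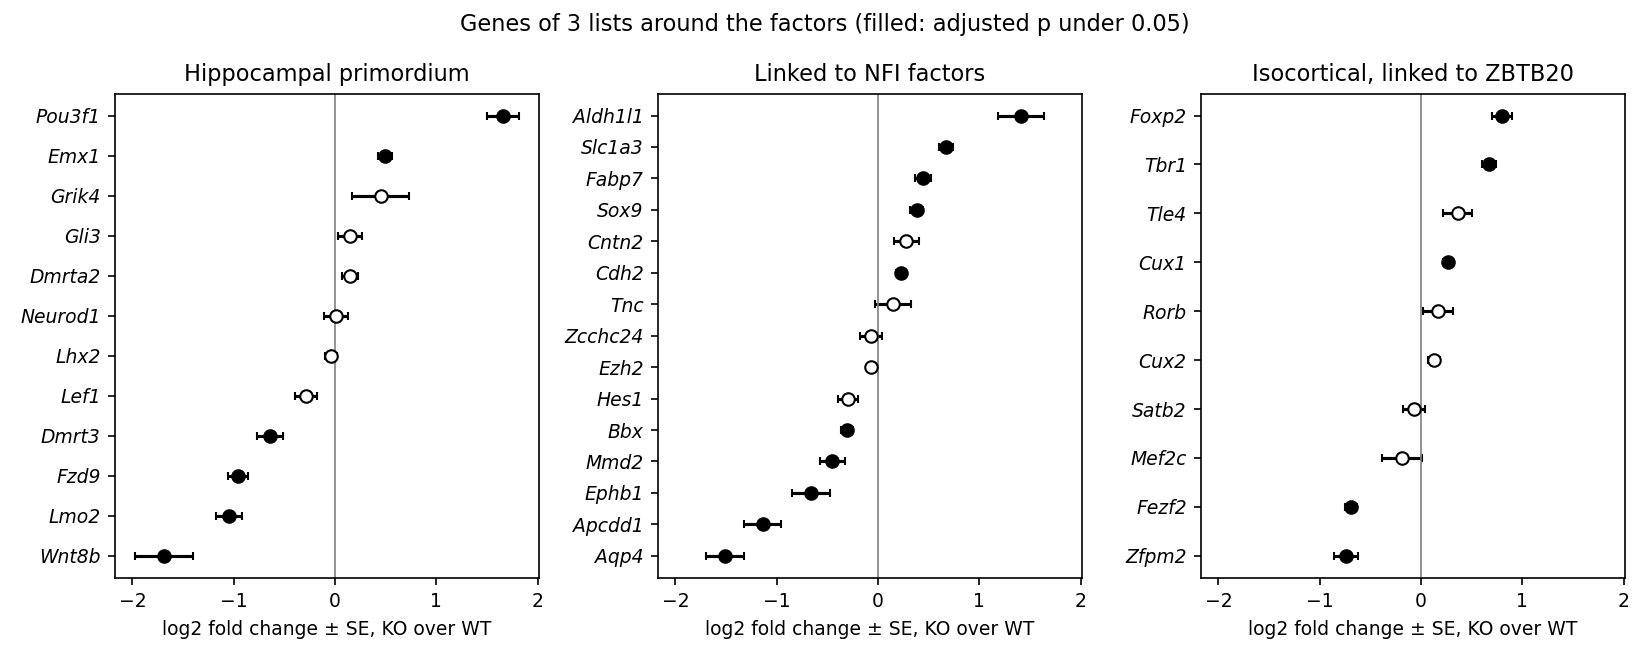
Log2 fold change of Emx2 KO over WT for every tested gene of the hippocampal primordium, NFI-linked and ZBTB20-linked lists; bars give the SE and filled symbols passed an adjusted p of 0.05. Each of the 3 lists has filled symbols on both sides of 0, with Pou3f1 at 1.66 and Wnt8b at -1.69.

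Markers of other cell types that can hold PROX1 or NFI transcripts moved with the genotype, and fewer cells of a type cannot be told apart from less RNA per cell in bulk tissue. The summed level of 7 cortical hem markers was 60.9 to 109 CPM in knockout and 183 to 245 CPM in WT libraries, and 6 of the 7 fell. Choroid plexus markers summed to 57.5 to 93.0 CPM in knockout and 254 to 306 CPM in WT libraries, with 6 of 8 lower. This sum understates the fall of most of them, since Otx2 held 59.2 CPM of the knockout mean of 77.4 CPM. Otx2 itself did not pass (log2 fold change -0.04). The 4 of smallest p, Htr2c, Kcne2, Ttr and Clic6, had log2 fold changes of -4.66, -5.78, -5.61 and -2.81. Cajal-Retzius markers summed to 162 to 203 CPM in knockout and 278 to 319.7 CPM in WT libraries, with 3 of 6 lower and 1 higher. Radial glia markers ran the other way, at 3018 to 3472 CPM in knockout and 2685 to 2783 CPM in WT libraries, with 6 of 8 higher. Intermediate progenitor markers summed to 1074 to 1388 CPM in knockout and 795 to 1029 CPM in WT libraries, with 4 of 6 higher, and 2 without knockout replicate 2 or without WT replicate 1, 2 or 4. Neuronal markers overlapped, at 3477 to 4550.5 CPM in knockout and 2409 to 3823 CPM in WT libraries, with 3 of 7 higher, and 1 without WT replicate 4 or 5. Subpallial markers summed to 336 to 758 CPM in knockout and 231 to 400.1 CPM in WT libraries. Of these 9 markers, 6 were higher and 1 lower. They include Sp8, Nr2f2 and Htr3a, markers of the caudal ganglionic eminence, whose interneurons use PROX1. Sp8 rose (log2 fold change 0.98), Nr2f2 did not pass (0.37) and Htr3a fell (-1.23). The part of these shifts in the levels of the 6 genes was not tested.

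PROX1 also marks lymphatic endothelium, liver, lens and parts of the diencephalon. Of 3 lymphatic markers 1 rose and 1 fell, and their sum was 41.8 to 58.3 CPM in knockout and 40.9 to 48.8 CPM in WT libraries. Of the liver and lens markers Alb, Afp and Cryaa had at most 1, 7 and 1 reads in any library, and the only one tested, Cryab, fell. Diencephalic markers summed to 97.5 to 151 CPM in knockout and 105 to 184 CPM in WT libraries, with 1 of 6 tested genes higher. Summed endothelial markers were 139.9 to 244 CPM in knockout and 169 to 223 CPM in WT libraries, with 0 of 5 called. Meningeal markers were 550.5 to 746 CPM in knockout and 516 to 739.95 CPM in WT libraries, with 1 of 6 lower. Blood markers were 2356 to 7435 CPM in knockout and 2266 to 5501 CPM in WT libraries, with 0 of 8 called.

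Finally, genes were sought whose deviations from their genotype's mean followed those of each of the 6 across the 10 libraries, among 10376 genes of 10 CPM or more. All genes of a library share its depth, which falls into the 2 size classes, so the correlations are given as descriptions. The highest of 10376 correlations over 10 libraries can also be high through selection, and none was tested. Nfix was followed most closely by Aldoc, a glycolytic enzyme gene (Pearson r = 0.99), then by Rhbdl3 and Pmepa1 (0.96 each). Aldoc and Rhbdl3 were themselves lower in the knockout (log2 fold changes of -0.99 and -1.14, edgeR adjusted p of 0.0173 and 0.00639). Pmepa1 did not pass the genotype test. Nfib was followed by E330009J07Rik (0.98), Rprm (0.97) and 9630028B13Rik (0.96). Rprm, a p53-responsive cell cycle gene, fell by 1.02 on the log2 scale (edgeR adjusted p = 0.000583). E330009J07Rik also fell (log2 fold change -0.60, edgeR adjusted p = 0.00399), and 9630028B13Rik did not pass. Prox1 was followed by Plxna1 and Arfgap3 (0.94 and 0.92), and neither passed the genotype test. Zbtb20 was followed by Tsc1, Trappc8 and Abcc5 (0.97 each) and Nfia by Top1, Plcxd2 and Satb1 (0.99, 0.97 and 0.97). Of these only Satb1 passed the genotype test, and it rose (log2 fold change 0.29, edgeR adjusted p = 0.000407). Nfic was followed by Inf2, Rab3d and Ube2g2 (0.93, 0.91 and 0.91), and none of them passed.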

How the data were processed

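Total RNA of mouse E12.5 cortex had been sequenced by the authors as 5 Emx2 KO and 5 WT libraries, isolated with a column kit per the labels. The authors deposited whole-number read counts, 1 per Ensembl identifier, without normalization. Tools named in the submitters' processing notes are STAR 2.7.8a, featureCounts 1.6.3-p1 and bcl2fastq 2.20, with GRCm39 and a rat build, rn6, as builds. Strand setting, parameters and annotation release are not given in the sources used here. Names came from the symbol table, which matched 52073 of 56748 identifiers. Overlapping genes came from a GENCODE annotation of GRCm38 and were matched by Ensembl identifier. Levels were not compared between genes, since no gene length of the counted build was used.

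Libraries of a genotype differed beyond sampling noise (20 pairs, chi-square per gene of 9.06 to 23.7) and none were merged. Genes were filtered with filterByExpr (minimum count 10), scaled by TMM, and tested with edgeR 4.0.16 (robust quasi-likelihood fit, R 4.3.3; checked on simulated counts). Ratios used exact permutation tests. Alternatives were other scalings, no filter, DESeq2 1.42.0, limma-voom 3.58.1, blocks, subsets, a Y-linked covariate and leaving out each library. The robust option was chosen after seeing the data. The members and lists were chosen with earlier results of these data known. Genes named are the 6, Emx2, up to 4 called genes of smallest p per list, the 3 most like each member, and overlapping genes. Some genes outside this rule were chosen after their values were seen. These are Wnt8b, Dmrt3, Apcdd1, Ephb1, Mmd2, Bbx, Fabp7, Cdh2, Otx2, Nr2f2 and the genes of the tissue check that no list rule names. The counts over 1 marker list and 1 gene most like Prox1 are not reported here.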

Additional observations from a re-analysis of the deposited data

Results flagged for a closer look

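In knockout replicate 5 the Nfib level of 1134 CPM stood apart from the other 4 knockout libraries, of which the next was 740.4 CPM. The gap made up 0.804 of the range of the 5 knockout libraries, above the limit of 0.71 for 5 values. It was the only such case among 26 groups of values examined, and chance gives about 1 in 20.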

How the results depend on the processing

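The log2 fold changes of the 6 genes kept their direction in all 150 values from 25 alternatives, of which 6 no longer passed the test and 10 newly did. The threshold of 0.01 is 1 of the 25 and reuses the main fit, so no direction could change there, for these or other genes. Prox1, Nfib and Nfix did not pass among libraries below 20000000 counts (-0.89, -0.38 and -0.86) or within title code 14922 (-0.80, -0.59 and -0.91), so 0 of the 6 genes were called lower there. Both subsets hold the same knockout libraries, replicates 3 and 5. Zbtb20 passed within code 14922 (0.43). Nfia passed with DESeq2 (-0.38), limma-voom (-0.41), a block for the title code (-0.37), libraries above 20000000 counts (-0.69) and Y-linked expression as a covariate (-0.50). Nfic passed with total counts as the only scaling (-0.29). The subsets have fewer libraries than the main fit, and the cause of these changes was not tested. Genes called, called higher and called lower numbered 626, 335 and 291 in the smaller libraries, 530, 243 and 287 within code 241022, 1710, 1007 and 703 within code 14922, and 2182, 1349 and 833 at a threshold of 0.01. Scaling moved the split of calls: upper-quartile scaling gave 1899 higher and 2245 lower, and total counts 1793 and 2457, against 2345 and 1694 with TMM, while the median fold change of all genes stood at -0.04 and -0.05.

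Between 3 knockout and 2 WT libraries, or the reverse, the exact permutation test can give no p below 0.100, so no share or ratio could pass. The log2 differences in the larger and smaller libraries were 0.35 and 0.33 for the Nfia share, 0.67 and 0.31 for the Nfic share, -0.49 and -0.43 for the Nfix share, and -1.01 and -1.71 for Prox1 to Zbtb20. The Nfib share, -0.02 over all libraries, stood at 0.00 in the smaller libraries, on the other side of zero.

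Leaving out each library in turn gave 3077 to 3977 genes called, 1767 to 2303 higher, 1310 to 1758 lower, and 3 to 5 of the 6 genes lower. The fold changes ran from -1.14 to -0.91 for Prox1, 0.25 to 0.46 for Zbtb20, -0.50 to -0.29 for Nfia, -0.91 to -0.68 for Nfib, -0.31 to -0.20 for Nfic and -1.42 to -1.12 for Nfix. Nfic passed without WT replicate 1 and without knockout replicate 5, and Nfia without knockout replicate 5. The log2 share differences ran from 0.32 to 0.39 for Nfia, -0.03 to -0.00 for Nfib, 0.41 to 0.58 for Nfic and -0.53 to -0.42 for Nfix, and the Prox1 to Zbtb20 difference from -1.48 to -1.25. Emx2 and the genes picked by the list rule, 48 in all, gave 1199 values. Of these, 154 no longer passed, 4 newly passed and 0 changed direction. Wnt8b, Dmrt3, Apcdd1, Ephb1, Mmd2 and Bbx are not among the 48. Of 850 list counts, 123 moved by over 1.5 times. No paired analysis was possible because replicate numbers follow accession order and pair nothing.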
